A study of Mus musculus with 6 samples.

Results

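The 10 genes described here encode enzymes of the methionine cycle (Mat2a, Ahcy, Mtr), of transsulfuration (Cbs, Cth) and of polyamine metabolism (Odc1, Amd1, Srm, Sms, Sat1). They were taken by gene name from 51888 gene rows in the count tables of mouse hearts, as enzymes of these pathways, with earlier results of these data known. Hearts of 3 mice labelled L/L, which the labels also give as Elac2 +/+, served as controls. Hearts of 3 mice labelled L/L, cre, given as Elac2 -/-, were the knockouts. Elac2 encodes RNase Z, which trims the 3′ ends of precursor tRNAs in the nucleus and in mitochondria. All 6 mice were on C57BL/6 and carried Elac2 alleles with an exon between loxP sites, as the title L/L is read here. In the knockouts cre came from the muscle creatine kinase promoter, which is active chiefly in cardiac and skeletal muscle cells. No group carried cre without floxed Elac2, so effects of cre and of the loss of Elac2 cannot be told apart. RNA came from whole hearts, and all levels below are of transcripts, not of protein or enzyme activity. The labels state no age in words, and the library names hold the letters 4W, which the labels do not explain.

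In the methionine cycle, methionine is converted to S-adenosylmethionine (SAM), the methyl donor of most methylation reactions. The product S-adenosylhomocysteine is split to homocysteine, which is either methylated back to methionine or passed through transsulfuration to cysteine, a building block of glutathione. SAM is also decarboxylated to donate the aminopropyl groups with which ornithine-derived putrescine is extended to spermidine and spermine. Spermidine in turn supplies the hypusine residue of the translation factor eIF5A. In mammals transsulfuration is most active in liver and kidney.

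Total counts ran from 9850100 to 14461110 per library. Transcripts encoded by mitochondrial DNA took 49.3 to 61.1% of counts in controls and 33.3 to 36.7% in knockouts. Levels are given as CPM, the usual scaling of counts to a common depth, with a library size scaled by the TMM method, as mean ± SD over 3 libraries per group unless each library is listed. Each library is 1 mouse, as far as the labels say. The p-values set each difference against the spread between these mice, which edgeR estimates for each gene partly from the other genes. Elac2 itself stood at 15.05, 14.00 and 13.01 CPM in controls and at 5.36, 5.63 and 6.52 CPM in knockouts. Every knockout library lay below every control, with a log2 fold change of -1.27 (SE 0.15, edgeR adjusted p = 2.12e-04).

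Of the 10 enzymes, 9 had enough reads to be tested. Ahcy, Cth, Odc1, Sms and Sat1 rose in the knockout hearts and Mtr fell, at a Benjamini-Hochberg adjusted p under 0.05 in edgeR's quasi-likelihood test over 14302 genes. These 6 of 9 stand beside 36.5% of all tested genes called in either direction. The 5 higher enzymes compare with 18.7% of all tested genes, and the 1 lower enzyme with 17.8%. Mat2a, Amd1 and Srm did not pass the threshold. Among the 9 tested, the same 6 genes were those whose control and knockout levels did not overlap, which held for 50.6% of all tested genes. By direction, 26.2% of all tested genes had every knockout above every control, as 5 of the enzymes did, and 24.5% had every knockout below, as Mtr did. The median log2 fold change of the 9 tested enzymes was 0.69, against -0.01 over all tested genes. The same shares of called genes apply to the gene lists below, which were also chosen with earlier results of these data known.

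**Figure D1:**
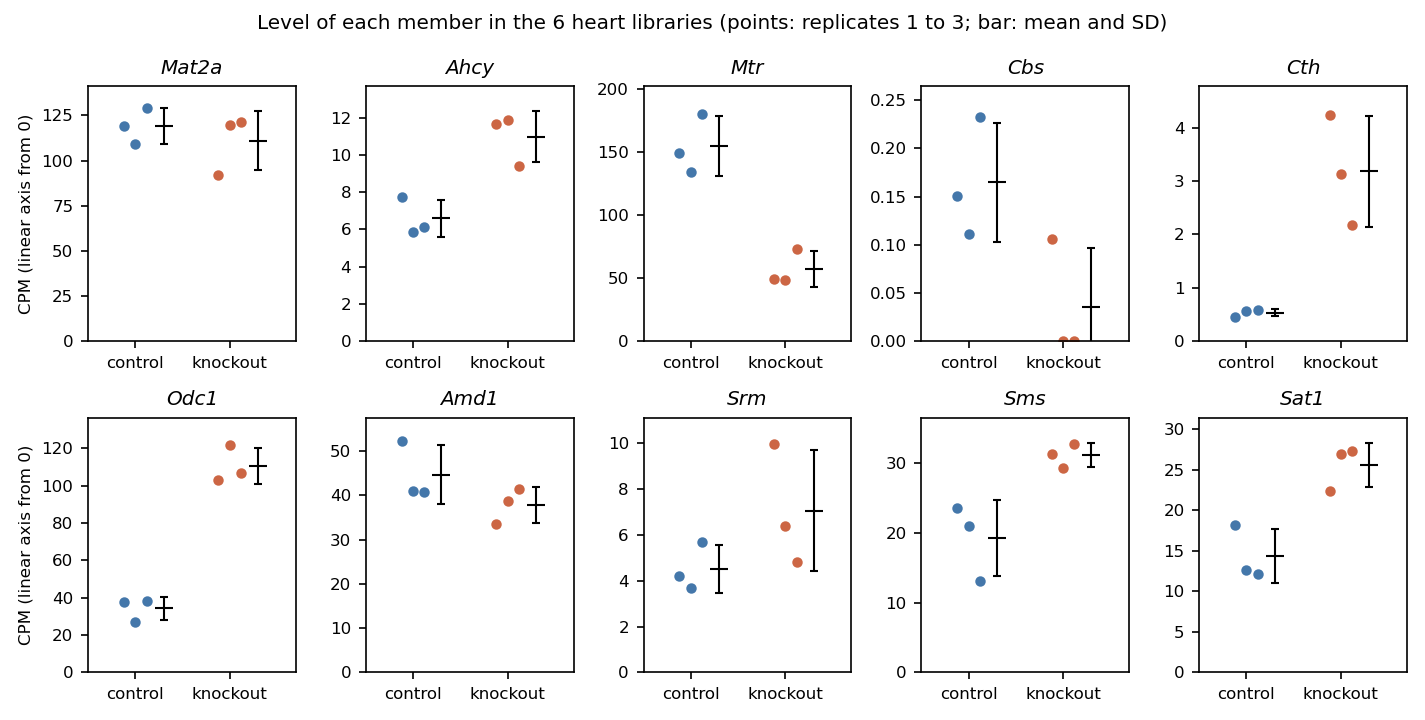
Levels of the 10 enzymes in each heart. Each point is 1 library, on a linear axis of CPM over the TMM-scaled library size, with the mean and SD of 3 control and 3 knockout libraries; each panel has its own axis, starting at 0, where the Cbs knockout bar is cut. Ahcy, Cth, Odc1, Sms and Sat1 lie higher in all 3 knockouts than in any control, Mtr lies lower, and Mat2a, Amd1 and Srm overlap.

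The sequence just upstream of each start is shown for 5 of the 6 enzymes that differed. The sixth is Cth. The sequences come from the RefSeq promoter table on GRCm38.p6, which held 8 of the 10 enzymes. Each run is printed 5′ to 3′ on the gene's own strand, keeping only bases outside the annotated gene. Capitals mark matches, on either strand, to CACGTG (the E-box bound by MYC and related factors) or to CCAAT, read as ATTGG on the other strand. TATAAA and TGATGNAA, the latter for elements bound by ATF4 with C/EBP factors, were sought too. None of these motifs shares bases with another.
Odc1, chr12:17544623-17544793, plus strand: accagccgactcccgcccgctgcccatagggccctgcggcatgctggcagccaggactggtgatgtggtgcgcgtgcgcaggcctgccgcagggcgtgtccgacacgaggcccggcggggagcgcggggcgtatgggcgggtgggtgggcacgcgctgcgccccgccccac
Sms, chrX:157492288-157492537, minus strand: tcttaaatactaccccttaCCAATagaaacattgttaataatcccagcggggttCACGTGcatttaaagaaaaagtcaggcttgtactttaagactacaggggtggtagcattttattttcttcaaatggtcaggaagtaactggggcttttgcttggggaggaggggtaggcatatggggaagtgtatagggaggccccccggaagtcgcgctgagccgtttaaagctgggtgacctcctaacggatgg
Sat1, chrX:155216450-155216699, minus strand: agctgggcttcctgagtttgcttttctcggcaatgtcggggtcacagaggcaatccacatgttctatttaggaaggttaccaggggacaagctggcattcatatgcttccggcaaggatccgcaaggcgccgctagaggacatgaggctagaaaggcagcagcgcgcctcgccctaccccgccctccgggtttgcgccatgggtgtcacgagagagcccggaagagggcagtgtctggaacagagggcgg
Ahcy, chr2:155074498-155074747, minus strand: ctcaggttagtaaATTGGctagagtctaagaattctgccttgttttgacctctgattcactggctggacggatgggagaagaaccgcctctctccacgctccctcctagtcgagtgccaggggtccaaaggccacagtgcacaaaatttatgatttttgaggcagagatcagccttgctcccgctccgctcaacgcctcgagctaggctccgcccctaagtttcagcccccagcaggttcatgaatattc
Mtr, chr13:12258114-12258363, minus strand: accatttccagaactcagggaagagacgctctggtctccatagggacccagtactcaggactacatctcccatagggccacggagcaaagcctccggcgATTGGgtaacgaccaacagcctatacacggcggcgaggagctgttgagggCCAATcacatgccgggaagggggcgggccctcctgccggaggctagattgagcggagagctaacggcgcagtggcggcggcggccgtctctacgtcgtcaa

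The Sms window holds 1 CACGTG and 1 CCAAT, and the Mtr window holds CCAAT on both strands. The Ahcy window holds 1 CCAAT, and the Odc1 and Sat1 windows hold none of the 4 motifs. Among the other enzymes with a window, Mat2a has TATAAA and CCAAT, Cbs has CACGTG and CCAAT, and Amd1 has no match. No window of the 8 holds TGATGNAA. The Odc1 window is shorter than the others printed, at 171 bases. Over 32851 promoters, read for 250 upstream bases, 6.02% hold CACGTG, 33.8% CCAAT, 12.4% TATAAA and 3.45% TGATGNAA. A match is a description of letters and does not show a bound site.

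In the methionine cycle, the transcript of the enzyme that remakes methionine fell and that of the enzyme that removes S-adenosylhomocysteine rose. The SAM synthetase transcript did not pass the test. Mtr, methionine synthase, passes a methyl group from methyltetrahydrofolate to homocysteine with cobalamin as cofactor. It lies at chr13:12182712-12258113 on the minus strand (mm10). Mtr stood at 148.8, 134.1 and 180.4 CPM in controls and at 48.9, 48.1 and 73.2 CPM in knockouts. The highest knockout library reached less than the lowest control. The log2 fold change was -1.45 (SE 0.19, edgeR adjusted p = 3.46e-04), a level 2.73-fold lower. In whole hearts, fewer cells of a type and less RNA per cell cannot be told apart. The summed level of 9 cardiomyocyte markers ran from 93019 to 95669 CPM in controls and from 63716 to 64497 CPM in knockouts, and its part in this difference was not tested. None of these markers was at 0, and 4 of the 9 were called lower. Most of the sum came from Ttn, at a mean of 54474 CPM in controls, and Myh6, at 19271 CPM. Myh6 was called lower, and Ttn was not called (edgeR adjusted p = 0.306). The groups of Ttn still did not overlap, at 54114 to 54808 CPM in controls and 42723 to 44753 CPM in knockouts. Of these markers only Tnni3 overlapped between the groups, and each of the others had every knockout below every control. Over all tested genes 24.5% had every knockout below.

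Ahcy, S-adenosylhomocysteine hydrolase, splits S-adenosylhomocysteine to adenosine and homocysteine (chr2:155059310-155074497, minus strand). Its level was 7.75, 5.89 and 6.16 CPM in controls and 11.7, 11.9 and 9.42 CPM in knockouts. All 3 knockouts were above all 3 controls. The level was 1.66-fold higher, with a log2 fold change of 0.73 (SE 0.17, edgeR adjusted p = 8.61e-03).

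Mat2a encodes the catalytic subunit of the SAM synthetase of tissues other than liver (chr6:72432799-72439558, minus strand). It was measured at 119.4, 109.3 and 128.9 CPM in controls and at 92.0, 119.7 and 121.3 CPM in knockouts. Knockout 1 was the lowest of the 6 libraries and the groups overlapped. The log2 fold change was -0.10 (SE 0.14, edgeR adjusted p = 0.591). Without knockout 1 it was 0.017, so no direction can be given. Mat2b, the regulatory subunit, had a log2 fold change of -0.16 and was not called, and the liver enzyme Mat1a did not have enough reads to be tested.

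Of 11 other genes of the methionine cycle, 7 were tested, 2 were called higher and none lower, with a median log2 fold change of -0.24. Mtrr, which reactivates methionine synthase by reducing its cobalamin, rose from 8.58 ± 0.197 to 11.6 ± 0.471 CPM (log2 fold change 0.44, edgeR adjusted p = 0.0275), opposite in direction to Mtr. Ahcyl2, an Ahcy-like protein, rose by 0.36 on the log2 scale (edgeR adjusted p = 0.0478). Neither gene was called without control 1, control 2, control 3 or knockout 2, and 1 of them was called without knockout 3. Without control 1, control 2, control 3 or knockout 2 the log2 fold change was 0.42 to 0.47 for Mtrr. For Ahcyl2 it was 0.32 to 0.41 in the same fits. Neither was called with DESeq2 or in the authors' deposited table. Ahcyl1, a further Ahcy-like protein that binds inositol trisphosphate receptors, is named after its values were seen. It stood at 54.9 CPM in knockout 1 and at 24.6 and 26.4 CPM in the other knockouts, against 55.8 to 61.2 CPM in controls, and was not called (log2 fold change -0.71, edgeR adjusted p = 0.0568). It was called lower without knockout 1, at -1.19, as 1 of 2 genes of the group, and also with DESeq2 and in the authors' deposited table (both -0.69), with limma-voom at -0.81 and with no filter at -0.66. The betaine route of methylating homocysteine had almost no reads: Bhmt2 was at 0 in all 6 libraries and Bhmt did not reach the filter.

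Among 9 methyltransferases that use SAM on small molecules, 8 were tested, 1 was called higher and 4 lower, with a median of -0.59. Gamt, the last enzyme of creatine synthesis, fell from 1.60 ± 0.260 to 0.594 ± 0.0383 CPM (log2 fold change -1.40, edgeR adjusted p = 6.23e-03). Hnmt, which methylates histamine, fell from 4.27 ± 2.32 to 1.17 ± 0.431 CPM (log2 fold change -1.94, edgeR adjusted p = 6.90e-03). Its controls ranged widely, at 6.62, 4.22 and 1.97 CPM, against 0.690, 1.28 and 1.53 CPM in knockouts. As3mt, which methylates arsenic, fell by 1.20 on the log2 scale (edgeR adjusted p = 1.62e-04). The other called genes, named after their values were seen, were Pemt of phosphatidylcholine synthesis at 1.89 and the carnosine methyltransferase gene Carnmt1 at -0.60. Pemt had few reads in controls, at 2, 3 and 5 counts. Carnmt1 was not called without control 2, control 3, knockout 1 or knockout 2, with DESeq2 or in the authors' deposited table, and Pemt was not called without both control 1 and knockout 3. In the methionine salvage pathway, which returns the methylthioadenosine released by polyamine synthesis to methionine, 6 of 6 genes were tested, 1 was called higher and 1 lower, with a median of 0.16. Mtap, the first enzyme of salvage, rose from 13.4 ± 1.29 to 18.6 ± 1.72 CPM (log2 fold change 0.48, edgeR adjusted p = 0.0208), and it was not called without control 1, control 2 or knockout 2. Without knockout 1 the list had 2 genes called higher. Adi1, a dioxygenase near its end, fell from 7.92 ± 2.20 to 2.94 ± 0.110 CPM (log2 fold change -1.41, edgeR adjusted p = 1.46e-03).

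Of the pair of transsulfuration enzymes, Cth rose and Cbs was too low to test. Cth, cystathionine gamma-lyase, releases cysteine from cystathionine and can form hydrogen sulfide (chr3:157894248-157925077, minus strand). It had 6, 5 and 5 counts in controls and 80, 54 and 27 counts in knockouts. In CPM these were 0.451, 0.556 and 0.581 in controls and 4.25, 3.14 and 2.17 in knockouts. Every knockout lay above every control, with knockout 1 highest and knockout 3 lowest of the 3. The level was 6.11-fold higher, with a log2 fold change of 2.61 (SE 0.37, edgeR adjusted p = 5.70e-04), from a level in controls that rests on 16 counts in all. Cbs, cystathionine beta-synthase, makes the cystathionine that Cth cleaves (chr17:31608894-31637238, minus strand). It had 2, 1 and 2 counts in controls and 2, 0 and 0 counts in knockouts, so no fold is given. A count of 0 allows up to 0.174 CPM in knockout 2 and 0.242 CPM in knockout 3, at 3 counts and for counting error only, so a difference was not detectable at this depth. Both enzymes are abundant in liver. Of 7 hepatocyte markers, Alb, Fgb, Fga and Serpina1a had no read in any library, and the list summed to 0 to 0.301 CPM in controls and to 0.212 to 0.725 CPM in knockouts, so the liver markers were at or near 0 in both groups.

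Of 12 genes of cysteine, sulfide, taurine and glutathione metabolism, all tested, 4 were called higher and 1 lower, with a median log2 fold change of 0.13. The 4 higher genes act on glutathione, a grouping made after their values were seen. Gclc, the catalytic subunit of glutamate-cysteine ligase, rose from 9.01 ± 0.612 to 20.6 ± 0.347 CPM (log2 fold change 1.19, edgeR adjusted p = 1.28e-04), and its modifier subunit Gclm rose by 0.99 on the log2 scale (edgeR adjusted p = 1.47e-03). Gss, glutathione synthetase, rose from 7.60 ± 0.519 to 25.3 ± 3.27 CPM (log2 fold change 1.73, edgeR adjusted p = 3.54e-05). Chac1, which degrades glutathione, rose from 2.92 ± 0.828 to 16.8 ± 3.26 CPM (log2 fold change 2.50, edgeR adjusted p = 5.52e-05). The 1 lower gene was the sulfide-oxidising Sqrdl (also Sqor), named after its values were seen, at -0.51, and that call was lost without control 1, control 2 or knockout 2, with DESeq2 and in the authors' deposited table. Without knockout 3, 3 genes of the list were called lower. Cdo1, which oxidises cysteine towards taurine and is named after its values were seen, stood at 7.52, 1.33 and 1.28 CPM in controls and at 1.698, 1.05 and 8.94 CPM in knockouts. The libraries high in Cdo1, control 1 and knockout 3, were also those highest in 5 adipocyte markers, none at 0 in all libraries, which summed to 32.8, 7.89 and 6.62 CPM in controls and to 2.97, 5.86 and 71.0 CPM in knockouts. The part of adipose tissue in Cdo1 was not tested, and without both libraries all 6 enzyme calls were kept.

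Transcripts rose for most of the carriers that bring methionine, cystine and their exchange partners into cells. Of 7 tested, 5 were called higher and 1 lower, with a median log2 fold change of 1.27. Over all tested genes the shares were 18.7% higher and 17.8% lower. Slc7a11, the cystine and glutamate exchanger, rose from 0.190 ± 0.0681 to 12.8 ± 0.813 CPM (log2 fold change 5.97, edgeR adjusted p = 1.00e-06), a level at which the controls held few reads. Slc7a5, the large neutral amino acid carrier that takes up methionine, rose by 3.96 on the log2 scale (edgeR adjusted p = 2.71e-05), and its partner chain Slc3a2, which it shares with Slc7a11, rose from 20.6 ± 4.88 to 58.1 ± 13.1 CPM (edgeR adjusted p = 4.03e-04). Slc38a1, a glutamine and small neutral amino acid carrier, rose by 1.27 (edgeR adjusted p = 1.34e-03). Named after their values were seen, the other called carriers were Slc38a2 at 0.80 and Slc43a2 at -0.52. Slc43a2 was not called when control 2, control 3, knockout 1 or knockout 2 was left out, nor with DESeq2, limma-voom or TMM without mitochondrial-encoded genes, nor in the authors' deposited table.

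In polyamine metabolism, transcripts rose for the decarboxylase that starts the pathway, the synthase that ends it and the acetyltransferase that turns polyamines over. Those of the enzymes between did not pass the test. Odc1, ornithine decarboxylase, makes putrescine and is the best-known control point of the pathway (chr12:17544794-17551505, plus strand). It stood at 37.8, 27.2 and 38.2 CPM in controls and at 103.4, 121.8 and 107.1 CPM in knockouts. The lowest knockout was far above the highest control, and the knockouts lay close together. The level was 3.21-fold higher, with a log2 fold change of 1.68 (SE 0.15, edgeR adjusted p = 4.69e-05). Among the 9 tested enzymes Odc1 had the smallest adjusted p, and Cth the largest fold.

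Amd1, adenosylmethionine decarboxylase, turns SAM into the aminopropyl donor (chr10:40287458-40302186, minus strand). It was measured at 52.4, 40.9 and 40.7 CPM in controls and at 33.4, 38.7 and 41.5 CPM in knockouts. Control 1 was high and knockout 1 low, and the other 4 libraries fell between 38.7 and 41.5 CPM. The log2 fold change was -0.24 (SE 0.14, edgeR adjusted p = 0.193).

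Srm, spermidine synthase, adds an aminopropyl group to putrescine (chr4:148591503-148594993, plus strand). Its level was 4.21, 3.67 and 5.69 CPM in controls and 9.98, 6.39 and 4.83 CPM in knockouts. Knockout 3 fell within the range of the controls and knockout 1 was the highest. The log2 fold change was 0.67 (SE 0.28, edgeR adjusted p = 0.0909). The call turned on 1 library: Srm was called without knockout 3, at 0.87, and was at 0.33 without knockout 1.

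Sms, spermine synthase, adds the next aminopropyl group, to spermidine (chrX:157443855-157492287, minus strand). It stood at 23.6, 21.0 and 13.1 CPM in controls and at 31.4, 29.4 and 32.8 CPM in knockouts. The knockouts lay close together above the controls, of which control 3 was the lowest. The level was 1.61-fold higher, with a log2 fold change of 0.69 (SE 0.19, edgeR adjusted p = 0.0170).

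Sat1, spermidine/spermine acetyltransferase, acetylates polyamines for export or oxidation (chrX:155213132-155216449, minus strand). Its level was 18.2, 12.7 and 12.2 CPM in controls and 22.4, 26.9 and 27.3 CPM in knockouts. The groups did not overlap, although control 1 came within a few CPM of knockout 1. The level was 1.76-fold higher, with a log2 fold change of 0.82 (SE 0.17, edgeR adjusted p = 4.93e-03). The synthase Sms and the acetyltransferase Sat1 thus both rose, and their ratio within a library overlapped between the groups, at 0.603 to 0.929 in controls and 0.715 to 0.917 in knockouts.

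Of 16 other polyamine genes, 11 were tested, 2 were called higher and 1 lower, with a median of -0.10. Azin1, an inhibitor of the antizymes that target ornithine decarboxylase for degradation, rose from 92.1 ± 7.79 to 144 ± 22.3 CPM (log2 fold change 0.65, edgeR adjusted p = 5.70e-03). The antizyme Oaz1, named after its values were seen, stood at 90.3 ± 8.85 CPM in controls and 77.7 ± 7.999 CPM in knockouts and was not called (log2 fold change -0.22, edgeR adjusted p = 0.202), and Oaz2 was at -0.23 and not called. Atp13a3, a P5B-type polyamine transporter, rose from 60.4 ± 3.87 to 123 ± 18.3 CPM (log2 fold change 1.02, edgeR adjusted p = 4.06e-04). The vesicular polyamine carrier Slc18b1 was called lower (log2 fold change -0.77, edgeR adjusted p = 0.0488), although its groups overlapped, and the call was kept without control 2 and lost without any other library. It was also lost with DESeq2, limma-voom and TMM without mitochondrial-encoded genes and in the authors' deposited table. The oxidases Smox and Paox, which act on spermine and on acetylated polyamines, had log2 fold changes of -0.05 and -0.10 and were not called. Oaz3 and Satl1 had no read in any library, and Arg1, Arg2 and Agmat did not reach the filter, so the supply of ornithine by arginase could not be tested.

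All 4 genes of the hypusine route were called higher, beside 18.7% of all tested genes, with a median log2 fold change of 0.75. Eif5a, the hypusinated translation factor, rose from 85.4 ± 4.74 to 139 ± 20.5 CPM (log2 fold change 0.70, edgeR adjusted p = 3.17e-03). Its paralog Eif5a2 rose from 2.65 ± 0.734 to 7.55 ± 0.911 CPM (log2 fold change 1.48, edgeR adjusted p = 9.37e-04). Dhps, which builds the residue from spermidine, rose by 0.74 on the log2 scale (edgeR adjusted p = 0.0153), and Dohh, which completes it, rose by 0.76 (edgeR adjusted p = 9.86e-03). The call of Dhps was lost without control 3 or knockout 2.

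**Figure D2:**
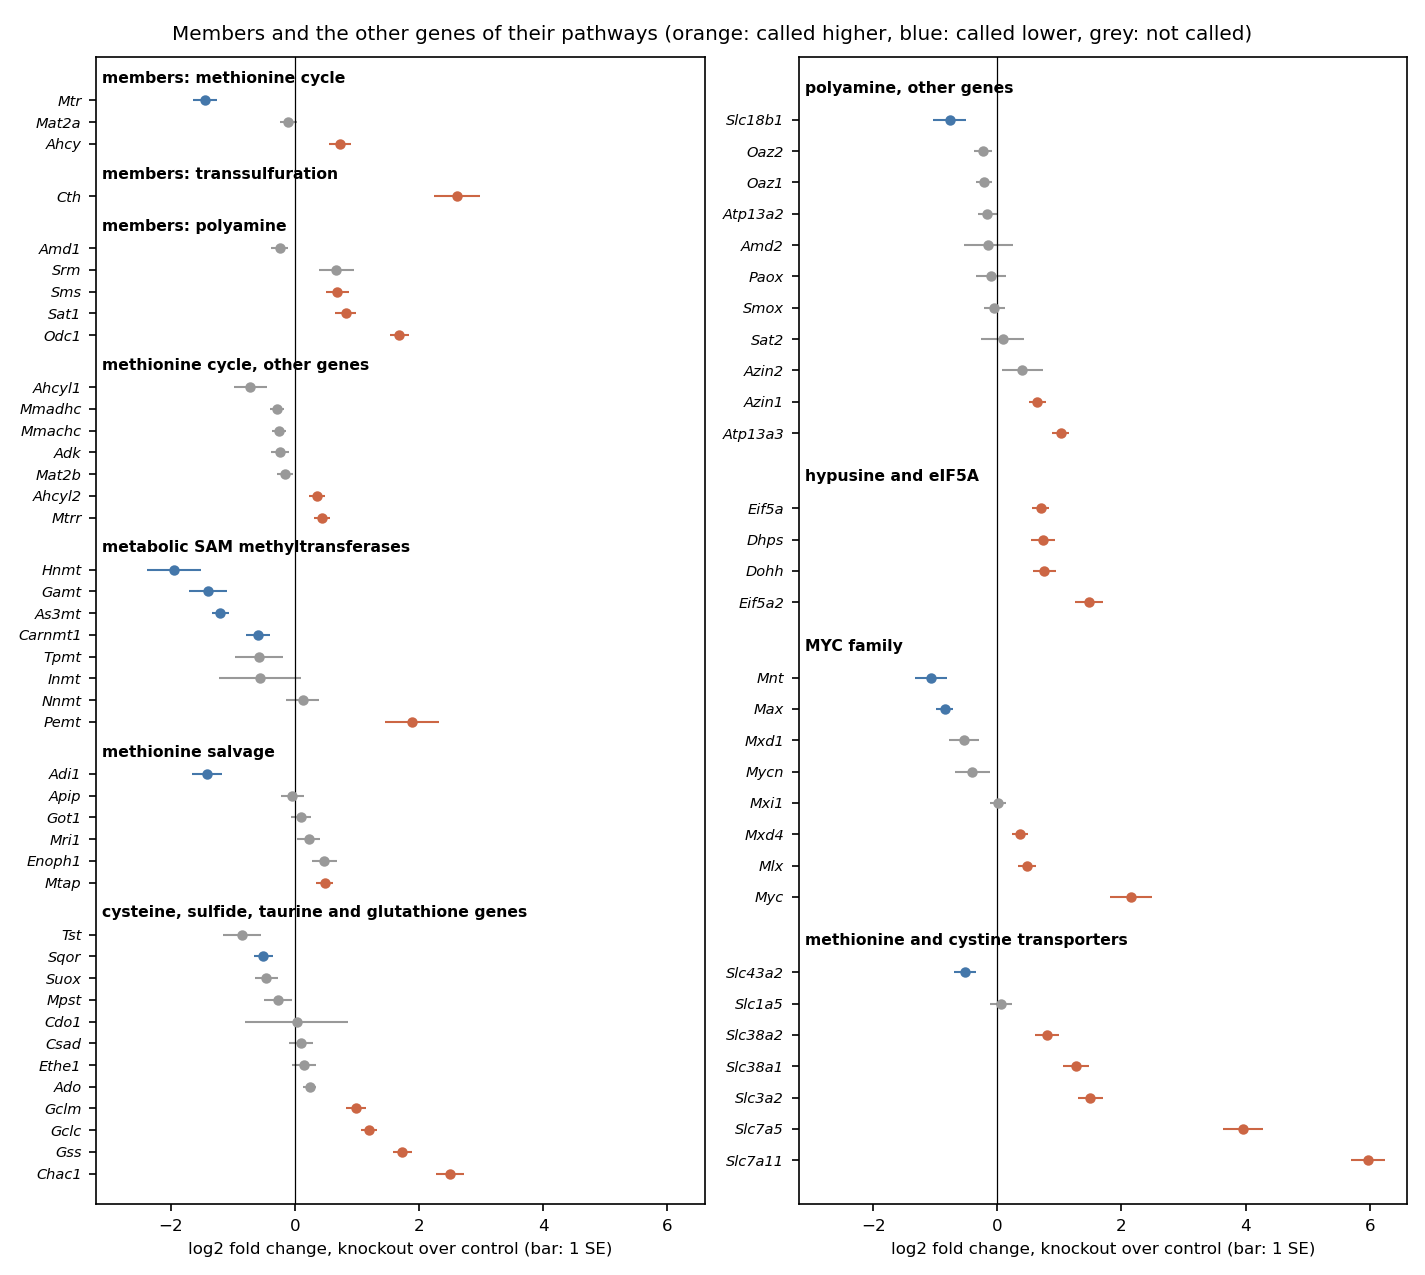
Log2 fold changes, knockout minus control, of the enzymes and of the tested genes of the other pathway lists, grouped by list. Bars show the SE from edgeR, and the marking of the points separates genes called at adjusted p under 0.05 from the rest. The 4 hypusine genes lie above 0, the transporters reach 5.97 at Slc7a11, and the methyltransferases fall on both sides.

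The MYC family holds regulators of Odc1 and of other polyamine genes in many cell types. Of 9 genes, 8 were tested, 3 were called higher and 2 lower, with a median of -0.19. Myc stood at 1.96, 1.67 and 3.02 CPM in controls and at 14.5, 7.26 and 7.25 CPM in knockouts. Knockout 1 was the highest and no knockout reached down to the controls (log2 fold change 2.15, edgeR adjusted p = 1.11e-03). Max, the partner through which MYC binds DNA, fell from 27.1 ± 3.02 to 15.1 ± 1.71 CPM (log2 fold change -0.85, edgeR adjusted p = 1.26e-03), and Mnt, a MAX-binding repressor, fell by 1.07 on the log2 scale (edgeR adjusted p = 0.0109). Mlx, a MAX-like factor, rose by 0.48 (edgeR adjusted p = 0.0303), and Mxd4, named after its values were seen, was called at 0.37. Mlx and Mxd4 were not called without control 2, control 3 or knockout 2, Mxd4 also not without control 1 or knockout 3, Mlx also not with DESeq2 or in the authors' deposited table, and Mnt was not called without control 3, leaving 1 gene called higher and 1 lower in that case. Across the 8 lists of other pathway genes, 63 of 74 were tested, 22 were called higher and 10 lower, and the median log2 fold change was 0.06. The lower count was 6 without control 3 and also 6 without knockout 2. Over all tested genes 18.7% were called higher and 17.8% lower.

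Levels of different genes were compared after dividing CPM by the exon length in kilobases. In controls Mat2a was the highest of the 10 enzymes, at 26.6 ± 2.18 CPM per kb. Mtr followed at 18.1 ± 2.77, Amd1 at 12.6 ± 1.89 and Odc1 at 10.1 ± 1.83 CPM per kb. Sat1, at 5.18 ± 1.20, came next, above Sms at 3.20 ± 0.909, Srm at 2.83 ± 0.655 and Ahcy at 2.35 ± 0.358 CPM per kb. Cth, at 0.190 ± 0.0246, and Cbs, at 0.0220 ± 0.00826 CPM per kb, were far lower. Of neighbours in that order, Sms with Srm and Srm with Ahcy overlapped between libraries, and the others did not.

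In knockouts Odc1 moved from the fourth place to the first, at 32.5 ± 2.86 CPM per kb, above Mat2a at 24.7 ± 3.67. Amd1 at 10.7 ± 1.15, Sat1 at 9.21 ± 0.974 and Mtr at 6.66 ± 1.67 CPM per kb followed, each overlapping its neighbour, so Mtr moved from the second place to a level below Amd1 that overlapped Sat1. Sms at 5.19 ± 0.284, Srm at 4.42 ± 1.65 and Ahcy at 3.92 ± 0.489 CPM per kb again overlapped in turn. Cth rose to 1.14 ± 0.371 CPM per kb and was still below the other 8, and Cbs was lowest.

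**Figure D3:**
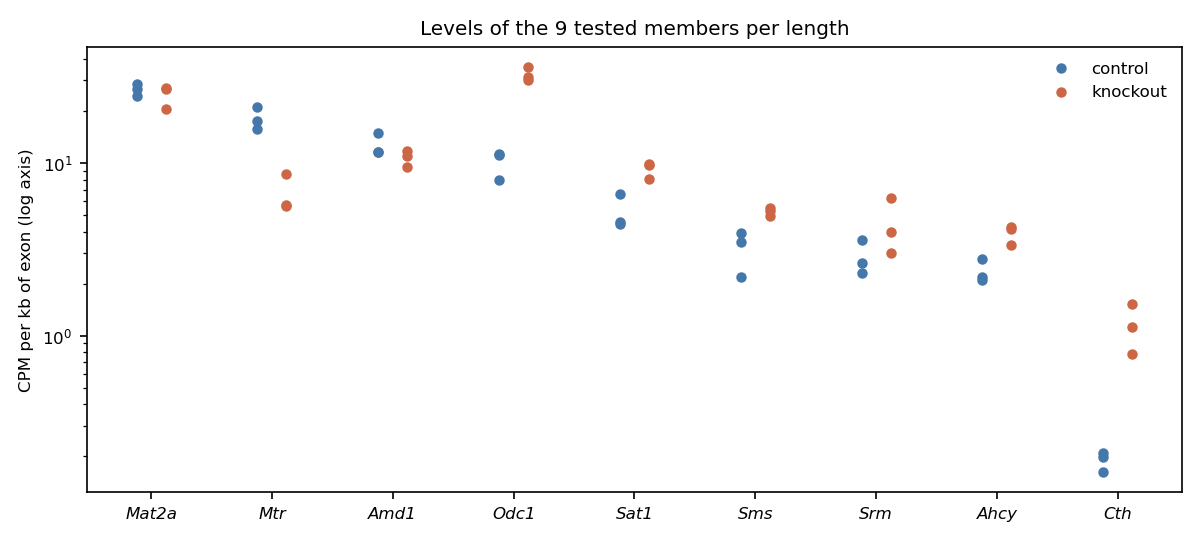
Levels of the 9 tested enzymes per exon length in controls and knockouts, in CPM per kb on a log axis, with 1 point per library. Cbs is not drawn. Odc1 goes from below Mat2a, Mtr and Amd1 in controls to the top in knockouts, while Mtr goes from the second place to below Amd1, overlapping Sat1.

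Ratios of counts within a library do not depend on how libraries are scaled to each other. The pairs were chosen after the values were seen and are given as a description. Odc1 to Amd1, the 2 decarboxylases that feed the synthases, was 0.721, 0.666 and 0.940 in controls and 3.09, 3.15 and 2.58 in knockouts, 3.79-fold higher. The control and knockout ranges were far apart, with fewer Odc1 than Amd1 reads in each control and more in each knockout. Odc1 to its antizyme Oaz1 was 0.310 to 0.461 in controls and 1.35 to 1.501 in knockouts, 3.74-fold higher. Odc1 to the antizyme inhibitor Azin1 was 0.314 to 0.431 in controls and 0.609 to 0.911 in knockouts, 2.10-fold higher.

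Against Amd1, Sms was at 0.323 to 0.514 in controls and 0.760 to 0.940 in knockouts. Sat1 to Amd1 was 0.300 to 0.348 in controls and 0.658 to 0.697 in knockouts, a narrow range in both groups. In the methionine cycle, Mtr to Mat2a was 1.25, 1.23 and 1.40 in controls and 0.531, 0.402 and 0.604 in knockouts, 2.52-fold lower. Methionine synthase thus had more reads than the SAM synthetase in each control and fewer in each knockout. Reads also depend on exon length, which is 8524 bases for Mtr and 4486 for Mat2a. Per kb, Mtr lay below Mat2a in both groups, at 18.1 against 26.6 CPM in controls and 6.66 against 24.7 CPM in knockouts. Mtr to its reductase Mtrr was 15.9 to 21.3 in controls and 4.005 to 6.59 in knockouts, 3.67-fold lower. Ahcy to Mat2a was 1.83-fold higher in knockouts and Cth to Mat2a 6.76-fold higher. Of the 10 ratios computed, that of Sat1 to Sms alone overlapped between groups. Most of the pairs set an enzyme that was called against a gene that was not. The separation of their ratios therefore largely restates the fold changes above. The share of other gene pairs that would separate was not computed.

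**Figure D4:**
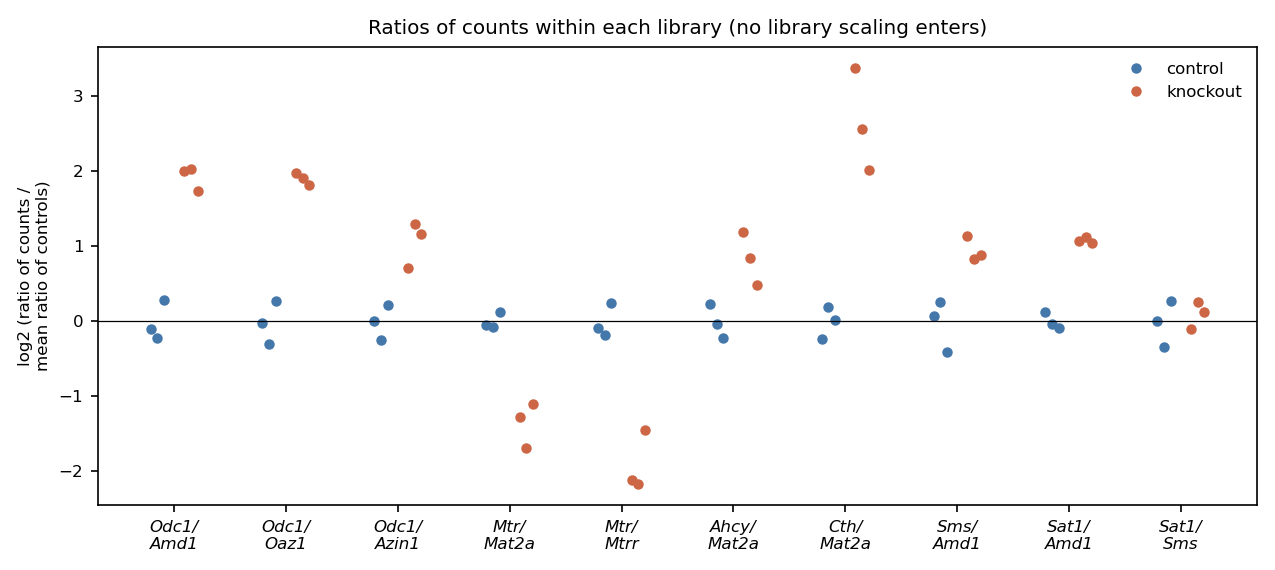
Count ratios within each library for 10 gene pairs on a log axis, 1 point per library, controls against knockouts. Each ratio is drawn relative to the mean ratio of the controls. The knockouts lie above the controls for Odc1 to Amd1 and below them for Mtr to Mat2a. Before this division Odc1 to Amd1 was 0.666 to 0.940 in controls and 2.58 to 3.15 in knockouts. Sat1 to Sms is the pair whose groups overlap.

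Genes whose levels ran most like those of Cth, Odc1 and Mtr over the 6 libraries were sought among 11984 protein-coding genes, by the Euclidean distance of log2 CPM centred on each gene's mean. Nearest to Cth were Nlrc3 at a distance of 0.203, Rtn4 at 0.278 and P3h2 at 0.324, with log2 fold changes of 2.33, 2.18 and 2.18. Nearest to Odc1 were Akip1 at 0.222, Aen at 0.230 and the glutathione synthetase Gss at 0.272, with log2 fold changes of 1.84, 1.74 and 1.73. Nearest to Mtr were Ctnnal1 at 0.212, Fgf14 at 0.217 and Med12l at 0.271, with log2 fold changes of -1.31, -1.49 and -1.32. With 6 libraries in 2 groups the distance is a description, with no test.

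Neighbouring genes on the chromosome were read for the same comparison. Mtr lies between Ryr2, the cardiac ryanodine receptor gene, at 75766 bases, and Actn2, a Z-disc actinin gene, at 11312 bases. Ryr2 fell by 1.61 on the log2 scale (edgeR adjusted p = 4.04e-04), and Actn2 was at -0.43 and not called (edgeR adjusted p = 0.0515). All 3 genes are on the minus strand, and Ryr2 and Actn2 are among the cardiomyocyte markers above. Acot9, 45993 bases from Sat1, rose by 1.62, and Gtf3c6, 29349 bases from Amd1, rose by 0.62. Ggcx, 2086 bases from Mat2a, fell by 0.67, and Sh2d6 on its other side was called higher at 6.88. None of the tested neighbours of Cbs, Cth, Odc1, Srm, Sms and Ahcy was called.

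Several of these enzymes have near-identical copies in the genome, so their counts may be shared with pseudogenes and paralogs, and their values are uncertain to that extent. Copies were sought with blastn as annotated transcripts at least 90% identical to the coding sequence over at least 100 bases. Sms had 7 copies, of which 3 had reads, and these summed to 28.7% of the counts of Sms. Its copy Sms-ps, identical over 1098 bases, had 92, 48 and 42 counts in the control libraries and 182, 151 and 87 in the knockout libraries. Ahcy had 3 copies, 2 of them with reads, at 21.0% of its counts. Gm4737, 99.7% identical to Ahcy, had 15, 14 and 8 counts in the control libraries and 41, 34 and 22 in the knockout libraries.

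Odc1 had 14 copies, 12 with reads, at 9.10% of its counts, of which AW146154 had 54, 36 and 26 counts in the control libraries and 79, 77 and 40 in the knockout libraries. Copies of Amd1, with its paralog Amd2 99.9% identical, came to 5.02% of its counts and those of Mat2a to 2.19%. Both copies of Srm and 1 of the 2 of Sat1 had no reads, and no copy was found for Mtr, Cbs and Cth. For 1 copy each of Sat1, Odc1 and Amd1 no row was matched in the count tables, so their reads were not analysed here. With the counts of the copies added, the log2 fold changes were 0.66 for Sms, 0.71 for Ahcy, 1.60 for Odc1, -0.24 for Amd1 and -0.11 for Mat2a, and the same 6 enzymes were called. Exons of Mat2a overlap those of Particl on the opposite strand over 508 bases, 11.3% of its exon length. The sources used here do not say if reads were counted by strand, so reads of the overlap may belong to either gene.

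Markers of other cells were read beside the enzymes, by their summed level in each group. For their calls, the shares over all tested genes were 18.7% higher and 17.8% lower. Of 7 fibroblast markers none was called (1042 to 1593 CPM in controls, 1527 to 2530 CPM in knockouts), but 2 were called higher without knockout 1 or without knockout 3, and 1 was called lower without knockout 1. Of 7 endothelial markers 4 were called lower (542 to 624 CPM against 413 to 458 CPM), and 1 or 2 when any library other than knockout 1 was left out. Of 7 macrophage markers 1 was called higher (182.2 to 203.4 CPM against 198 to 233 CPM). Of 7 smooth muscle and pericyte markers 2 were called in each direction (798 to 1018 CPM against 544 to 640 CPM), with 1 higher and 1 lower without control 1, control 2 or knockout 2, 1 higher without control 3, and 1 lower without knockout 3. Of 6 erythroid markers 1 was called higher (522 to 1794 CPM against 1440 to 2941 CPM), 2 without control 3, and none without control 1, control 2, knockout 2 or knockout 3. Of 5 adipocyte markers 4 were tested and none was called, but 2 were called lower without knockout 3. None of these markers was at 0 in all libraries. The part of these shifts in the enzymes' differences was not tested.

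In the authors' deposited table, which comes from DESeq2 on the same libraries, the same 6 enzymes passed an adjusted p of 0.05 in the same direction. There the log2 fold change was 1.72 for Odc1, 2.65 for Cth, -1.42 for Mtr, 0.85 for Sat1, 0.76 for Ahcy and 0.72 for Sms. With total library size alone in place of TMM, which includes the mitochondrial reads, the median over all tested genes moves to 0.68 on the log2 scale, and Mtr is at -0.75, Odc1 at 2.37, Mat2a at 0.59 and Amd1 at 0.43. Under that scaling Mat2a and Srm are called higher, while Mtr is still called lower.

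**Figure D5:**
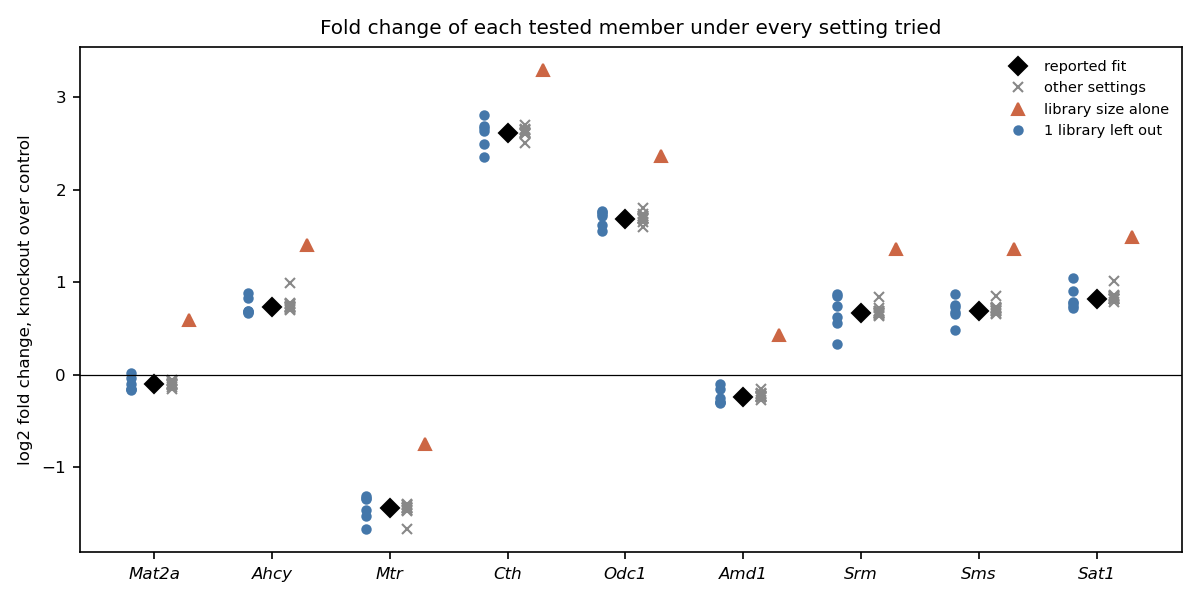
Log2 fold changes of the 9 tested enzymes in the reported fit and under each alternative setting, including each library left out in turn. Odc1, Cth, Sat1, Sms and Ahcy lie above 0 and Mtr below 0 throughout, while Mat2a and Amd1 change sign with library size alone, and Mat2a also without knockout 1.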

How the data were processed

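RNA-seq libraries of 6 mouse hearts were analysed. HISAT2 2.0.5, SAMtools 1.5, featureCounts 1.5.1, DESeq2 1.16.1 and the mm10 build are named per the submitters' processing notes. The authors deposited raw counts for each gene, in whole numbers, with 1 column per mouse, although the design text speaks of technical replicates. The authors' deposited table adds mean normalised counts (a signal), log2 fold changes with their SE, a test statistic (a score) and p-values. The table gave the gene names.

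Knockout counts were compared with control counts by edgeR 4.0.16 (R 4.3.3) and its quasi-likelihood test, after TMM scaling and filterByExpr with a minimum count of 10. Calls were made at a p under 0.05 after Benjamini-Hochberg adjustment over 14302 genes. The SE is the size of the log2 fold change divided by the square root of F. The scripts were tested on simulated data. Exon lengths and positions are from GENCODE M21 (GRCm38, the same build as mm10), and copies were sought with blastn 2.17.0. Libraries of a group differed by more than sampling noise (chi-square per degree of freedom at least 8.13), so each was counted as 1 replicate.

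The 10 genes and all lists were chosen with earlier results of these data known. Some listed genes are not reported here and were left out of the list counts. The rule for named genes takes Elac2, the 10 enzymes, up to 4 called genes with the smallest adjusted p of each other list, copies with reads, and for the 3 enzymes with the largest absolute log2 fold change the 3 nearest protein-coding genes with a mean of at least 1 CPM (log2 CPM with a prior count of 2). The fit was repeated with DESeq2 1.42.0, voom of limma 3.58.1 and a robust fit, with scaling by RLE, by library size alone or by TMM leaving out mitochondrial-encoded genes, with no filter or at least 50 counts in 3 libraries, with the replicate number as a block, with each library left out and at a threshold of 0.01, and set beside the authors' table. Leaving out control 1 and knockout 3 together, and adding the copies, were chosen after seeing the data.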

Additional observations from a re-analysis of the deposited data

How the results depend on the processing

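Ahcy, Mtr, Odc1, Sms and Sat1 kept their direction and their call at an adjusted p under 0.05 in all 18 alternatives, and Cth in the 17 that gave it a value, since the filter of 50 counts in 3 libraries removes it. Their log2 fold changes ranged from 0.66 to 1.41 for Ahcy, from -1.68 to -0.75 for Mtr, from 2.35 to 3.30 for Cth, from 1.55 to 2.37 for Odc1, from 0.48 to 1.36 for Sms and from 0.72 to 1.48 for Sat1. The alternatives are not independent. DESeq2 and the authors' deposited table, also from DESeq2 on the same libraries, are nearly the same fit, with 4483 and 4484 genes called. With each library left out the ranges were -0.17 to 0.017 for Mat2a, 0.33 to 0.87 for Srm and -1.38 to 1.51 for Cdo1. With library size alone 8645 genes were called (8093 higher and 552 lower) in place of 5215 (2671 higher and 2544 lower), and 36 pathway genes were called higher and 3 lower. That scaling gave log2 fold changes of 0.59 for Mat2a, 0.43 for Amd1, 1.36 for Srm, 0.11 for Carnmt1, 0.20 for Slc43a2, 0.18 for Sqrdl and 0.46 for Oaz1, and Gamt, Max, Mnt and Slc18b1 were not called. The cause was not tested. The adjusted p of Srm ran from 2.22e-04 to 0.286 over the alternatives, and Srm was also called with no filter, at 0.72. Cdo1 was at -0.26 with limma-voom. At an adjusted p under 0.01, 3006 genes were called (1591 higher and 1415 lower) and 5 of the 6 enzymes, without Sms. Pathway genes called lower ran from 6 to 11 with 1 library left out.

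No pairing by replicate number was seen. A control and a knockout with the same number deviated from their group means with a correlation of -0.198, 0.085 or -0.087. Of the controls, 1 of 3 correlated best with its own number. With 3 mice a group these values cannot show that no pairing exists. With the replicate block 4293 genes and the same 6 enzymes were called, and Cdo1 was at -0.059. With the block Mtrr, Ahcyl2, Mtap, Slc18b1, Mlx, Mxd4, Slc43a2 and Sqrdl were not called, and Ahcyl1 was. With 3 mice a group and few counts, Cth in controls and Cbs in both groups are the values of the enzymes that depth limits most. Of the other named genes, Slc7a11 had 3, 1 and 2 counts in controls and Pemt 2, 3 and 5.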
